A study of Mus musculus with 18 samples.

Results

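Cerebellum of human-ApoD transgenic mice was compared with cerebellum of ApoD knock-out mice, both collected 6 h after an injection of paraquat. The comparison rests on 6 of the 18 Affymetrix arrays of the study, 3 of transgenic and 3 of knock-out mice given paraquat, chosen by their titles. The study also held wild-type mice and a saline arm of all 3 genotypes. All animals were male and adult, 80 days old within 5 days, and received 1 intraperitoneal injection, of sterile saline alone or of paraquat, dosed at 30 mg/kg and dissolved in 200 µl. Each genotype and treatment had 9 mice, and each array read RNA pooled from 3 of them, so errors here describe differences among pools. The transgenic mice are labelled as a gain-of-function line for human ApoD, over-expressed in neurons. The promoter that drives the transgene, the genetic background of the lines and the part of the gene removed in the knock-out are not given in the sources used here. Arrays whose titles do not name paraquat were taken as saline from the treatment protocol. Values are log2 expression after normalisation by the robust multi-array average (RMA), 1 probe set per gene, and a difference is always transgenic minus knock-out unless another order is named.

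Apolipoprotein D is a secreted lipid-binding protein of the lipocalin family. In the nervous system it is made mainly by glia and vessel-associated cells, and its amount rises with ageing, injury and oxidative stress. Paraquat is a herbicide that takes electrons from cellular reductases and passes them to oxygen, which yields superoxide. Systemic stress also raises adrenal glucocorticoids, which enter the brain, bind the glucocorticoid receptor and switch on a set of target genes such as Fkbp5, Sgk1 and Tsc22d3. The comparison sets an animal without the lipocalin beside an animal carrying an added human copy, during the early response to the toxin.

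Of the 6 arrays, a pair stood apart. The median of knock-out paraquat array 2 was 6.98, against 7.10 to 7.15 on every other array of the study, a spread of 2.06 (SD of its probe sets, elsewhere 2.20 to 2.28), and a mean correlation with the other arrays of 0.971 against 0.986 to 0.993. Transgenic paraquat array 3 carried a low gap between the 3' and 5' probe sets of pyruvate carboxylase, a labelling control, at 1.95, where 15 arrays lay between 2.63 and 3.16, knock-out paraquat array 2 was at 2.25 and transgenic saline array 3 at 1.82. The spike-in control dap read 12.40 on transgenic paraquat array 1 and 10.5 to 10.7 on the other 5 arrays of the comparison. The 18S control read 7.46, 6.59 and 6.59 on transgenic paraquat arrays 1, 2 and 3 and 7.55 to 7.70 in the knock-out. Results are therefore given with all arrays, without knock-out array 2, and, where it matters, without transgenic array 3 or without both. The part of these array differences in any result was not tested. Cerebellar identity was plain on all 6 arrays, where the granule neuron gene Gabra6 read 12.17 to 12.78 and the Purkinje neuron gene Pcp4 12.81 to 13.34.

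Apod itself separated the genotypes. Under paraquat it read 12.13, 12.29 and 12.32 in the transgenic and 9.63, 9.83 and 9.16 in the knock-out. The groups did not overlap, and Apod was higher in the transgenic by 2.71 (SE 0.13, limma adjusted p = 1.2e-10, n = 3 and 3 pools), which is 6.55-fold. Wild-type paraquat arrays read 12.53, 12.68 and 12.76, all above the transgenic. The mouse probe set did not show a level above wild-type, and whether it can read the human transcript is not given in the sources used here. Under saline the same difference was 3.92 (adjusted p = 1.1e-13), with knock-out arrays at 8.40, 8.22 and 8.50 and transgenic arrays at 12.25, 12.28 and 12.35. The gap was smaller under paraquat (interaction -1.21, SE 0.19, adjusted p = 0.016), and the knock-out signal was higher on all 3 paraquat arrays than on all 3 saline arrays. The interaction was called in 17 of 23 alternatives and missed the threshold without knock-out saline array 1 (adjusted p = 0.057) or 2 (0.098), transgenic saline array 2 (0.058) or knock-out paraquat array 1 (0.076). Which part of the gene the knock-out lacks relative to the probes is not known here, so the remaining knock-out signal is given as a reading of the probe set.

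Over 8320 genes tested, 1284 (15.4%) differed between transgenic and knock-out under paraquat, 799 higher (9.6%) and 485 lower (5.83%) in the transgenic. The calls come from limma over all 18 arrays and 6 group means, at an adjusted p (Benjamini-Hochberg) below 0.05. Without knock-out array 2 there were 1925 calls (23.1%), 569 higher (6.84%) and 1356 lower (16.3%), so that the majority changed side with that array. Without transgenic array 3 there were 1266 (15.2%), 847 higher (10.2%) and 419 lower (5.04%), and without both 2076 (25%), 757 higher (9.1%) and 1319 lower (15.9%). The 934 genes (11.2%) called with and without knock-out array 2 split into 475 higher (5.71%) and 459 lower (5.52%), and 736 (8.85%) were called in all 4 fits, 402 higher (4.83%) and 334 lower (4.01%). The median difference of all genes was 0.04 with all arrays and -0.04 without knock-out array 2. The count also hung on the other transgenic arrays, with 611 calls without array 1 and 734 without array 2. Of the 1284 calls 34 exceeded 2-fold, 11 higher and 23 lower. Among all genes tested, 1905 (22.9%) had no overlap between the 3 transgenic and the 3 knock-out values. The 15 genes named for the largest difference each way had to have no overlap, so their separation was set by that choice. An exact permutation test of 3 against 3 arrays cannot fall below p = 0.1, so single genes were judged by the fit across all genes, whose 95% confidence interval had a half-width of 0.27 for the median gene. In RNA of whole tissue, fewer cells of a type and less RNA per cell cannot be told apart.

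Many glucocorticoid-responsive genes were lower in the transgenic. Of 41 members tested, 19 were lower in the transgenic and 1 was higher, beside 5.83% lower over all genes, and the list median was -0.46 beside 0.04 over all genes. Of the 45 symbols listed, 43 were on the array and 41 passed the filter on low values. The list was written with earlier results of these data known, so its count is a description and not a test. All 19 genes that were lower were also lower without knock-out array 2, where the count was 23 lower and 0 higher with a median of -0.68. In that fit 16.3% of all genes were lower, with a median of -0.04. Without transgenic array 3 the count was 16 lower and 1 higher with a median of -0.25, and without both arrays 18 lower and 1 higher with -0.38. The shares lower over all genes were 5.04% and 15.9% in these fits. Under saline the same list had 1 lower and 3 higher, with a median of 0.08. The interaction with treatment was called for 2 of the 41 members. The mean of the list on the transgenic paraquat arrays was 9.13, 8.94 and 8.43, on the knock-out arrays 9.59, 9.30 and 9.45, and in wild-type mice given paraquat 9.62, 9.64 and 9.69. All 6 knock-out and transgenic saline arrays lay between 8.47 and 8.64. Transgenic array 3 thus lay below the saline arrays, and the other transgenic arrays lay between the saline level and the knock-out level.

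Lcn2, encoding the siderophore-binding lipocalin 2, an acute-phase protein, had the next largest difference after Apod among the genes tested. It read 4.85, 4.69 and 4.13 on the transgenic paraquat arrays and 6.61, 6.98 and 7.46 on the knock-out arrays, while no saline array of any genotype exceeded 4.37. The difference was -2.46 (SE 0.20, adjusted p = 3.4e-07), and -0.03 under saline (adjusted p = 0.94). The transgenic and saline values lie near the low end of the arrays, whose lowest value was 3.13, and no exact fold is given. Lcn2 was not tested under the 60th percentile filter. Its interaction with treatment was -2.43 (SE 0.28, adjusted p = 0.00028) and was called in all 22 alternatives run for it, with adjusted p up to 0.0030. Lcn2 on the wild-type paraquat arrays read 6.39, 6.70 and 7.01, within or near the knock-out range.

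Sgk3 encodes a kinase related to the serum- and glucocorticoid-regulated kinase and acts downstream of phosphoinositide signalling. Its values were 8.60, 8.12 and 7.65 in the transgenic and 10.19, 9.81 and 9.78 in the knock-out, without overlap. The difference was -1.80 (SE 0.17, adjusted p = 3.3e-06), and -1.57 without transgenic array 3. Under saline Sgk3 stood at -0.43 (adjusted p = 0.10), and the interaction was -1.37 (SE 0.24, adjusted p = 0.037). The interaction was called in 13 of 23 alternatives, with adjusted p up to 0.24. Its call ended without any of the 3 knock-out saline arrays, without transgenic saline array 1 or 2, without knock-out paraquat array 1 and without transgenic paraquat array 2, at adjusted p from 0.057 to 0.16.

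The classical feedback and metabolic targets followed with smaller differences. Fkbp5, whose product binds the receptor complex and damps hormone signalling, read 9.19, 8.93 and 7.86 in the transgenic and 10.06, 9.51 and 9.89 in the knock-out. It was lower by 1.16 on the log2 scale (-1.16, SE 0.24, adjusted p = 0.0049), and by 0.76 without transgenic array 3 (-0.76, adjusted p = 0.011). Sgk1, the namesake kinase of the family, read 11.04, 10.81 and 9.83 against 11.64, 11.19 and 11.33. Both groups were separate for each of these genes, with transgenic array 3 the lowest each time. Sgk1 was lower by 0.83 (-0.83, SE 0.24, adjusted p = 0.027), but at -0.46 without transgenic array 3 (adjusted p = 0.12). Its call also ended without both doubted arrays (-0.56, adjusted p = 0.068) and without knock-out array 1 (-0.70, adjusted p = 0.090). Cdkn1a, the gene of p21, which halts the cell cycle, read 10.24, 9.68 and 8.88 against 10.92, 10.80 and 10.62, a difference of -1.18 (SE 0.22, adjusted p = 0.0023). All 3 knock-out values lay above all 3 transgenic values.

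The interaction with treatment, needed before a difference can be placed under paraquat, missed the threshold for Fkbp5 (-1.73, adjusted p = 0.063) and Cdkn1a (-1.61, adjusted p = 0.051). Both interactions exceed the differences under paraquat in size, since the transgenic mean of each gene lay above the knock-out mean under saline. Without transgenic array 3 both interactions passed, at adjusted p = 0.040 and 0.031. Over their 23 alternatives, Fkbp5 was called in 7 with adjusted p up to 0.33, and Cdkn1a in 9 with adjusted p up to 0.30.

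**Figure D1:**
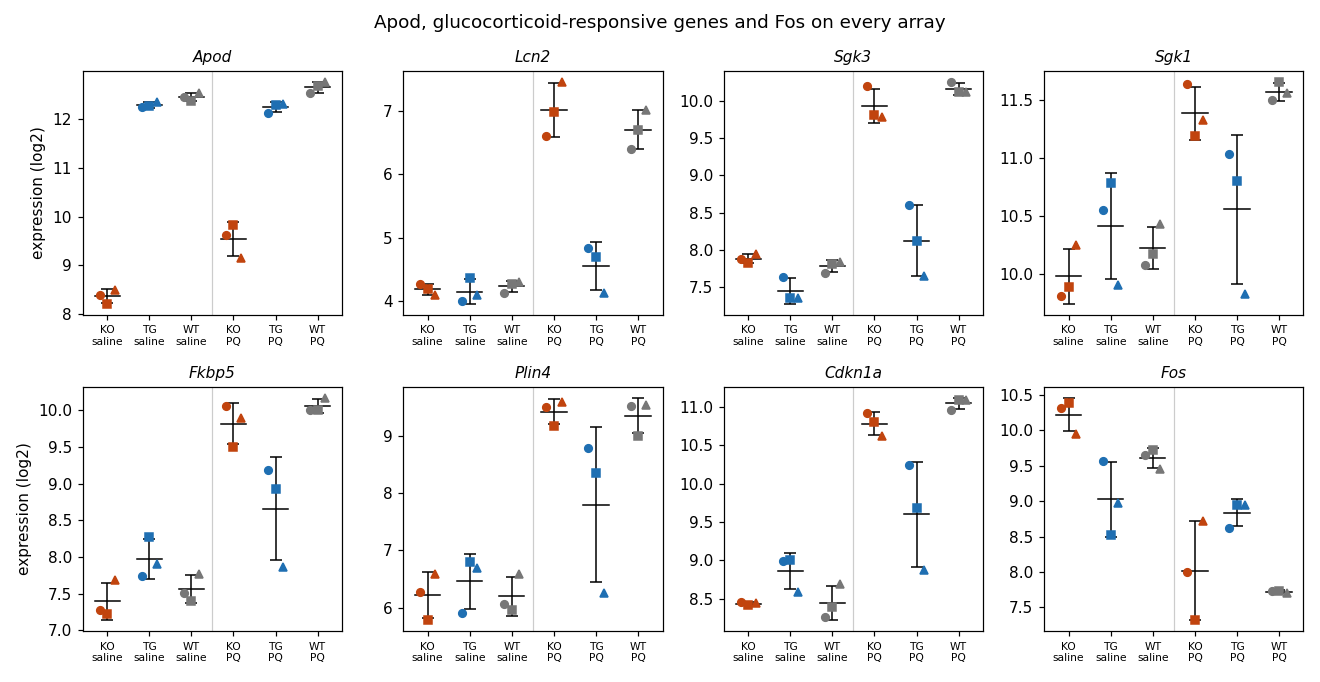
Log2 expression (y axis) of Apod, 6 glucocorticoid-responsive genes and Fos on all 18 arrays, by genotype and treatment (x axis: KO knock-out, TG transgenic, WT wild-type, PQ paraquat). Circles, squares and triangles are replicates 1, 2 and 3, the line is the mean and the bar the SD of 3 arrays. Under paraquat Lcn2 in the transgenic stays at 4.13 to 4.85 while the knock-out lies at 6.61 to 7.46, and Plin4 on transgenic array 3 reads 6.25 beside 8.80 and 8.36 on the other 2.

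Members that act on lipids and glucose were among those lower in the transgenic. Plin4, a coat protein of lipid droplets, read 8.80, 8.36 and 6.25 in the transgenic and 9.51, 9.17 and 9.59 in the knock-out. The difference of -1.62 (SE 0.42, adjusted p = 0.016) became -0.85 without transgenic array 3 (adjusted p = 0.038), which lay well below the other 5 arrays. The interaction of Plin4 with treatment was not called by limma (-1.87, SE 0.59, adjusted p = 0.75). Angptl4, a secreted inhibitor of lipoprotein lipase, read 6.78, 6.34 and 5.86 against 7.76, 7.50 and 7.11, a difference of -1.13 (SE 0.20, adjusted p = 0.0019). Pnpla2, the lipase that starts the breakdown of stored triglyceride, differed by -0.75 (adjusted p = 0.0028), but its 1 other probe set had the opposite sign and their mean ended the call (-0.30, adjusted p = 0.061). Txnip, which binds thioredoxin and restrains glucose uptake, read 9.14, 9.03 and 8.30 against 10.21, 9.90 and 9.69, a difference of -1.11 (SE 0.17, adjusted p = 0.00079). None of these 4 overlapped between the groups. Slc2a1, the glucose transporter of the blood-brain barrier, was at -0.63 (adjusted p = 0.026) with overlapping values. It lost its call without transgenic array 3 (-0.35, adjusted p = 0.11) or 2 (-0.60, adjusted p = 0.076) and without knock-out array 1 (-0.60, adjusted p = 0.063). Foxo1, a transcription factor of fasting, differed by -0.87 (adjusted p = 0.0010).

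Further members had separate groups. Sult1a1, a phenol sulfotransferase, read 7.44, 7.33 and 6.81 in the transgenic and 8.92, 8.64 and 8.64 in the knock-out, a difference of -1.54 (SE 0.21, adjusted p = 0.00028). Mertk, a receptor through which phagocytes and astrocytes take up dying material, read 8.34, 8.42 and 7.75 against 9.31, 9.18 and 9.18 (-1.06, SE 0.14, adjusted p = 0.00017). Gadd45g, a stress-response gene, differed by -0.77 (SE 0.10, adjusted p = 0.00017), with transgenic arrays at 8.48, 8.48 and 8.39 and knock-out arrays at 9.37, 9.20 and 9.10. Here transgenic array 3 did not stand apart. Map3k6, a stress-activated kinase, differed by -1.17 (adjusted p = 0.0035) and Klf15 and Klf9, Krüppel-like factor genes named after their values were seen, by -0.65 (adjusted p = 0.0068) and -0.36 (adjusted p = 0.027). Outside the list, Ada, encoding adenosine deaminase, differed by -1.15 (adjusted p = 0.0019) and Lrg1, an acute-phase glycoprotein, by -0.89 (adjusted p = 0.0026). Under saline they were at 0.02 and 0.28, with adjusted p of 0.97 and 0.30.

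Not every glucocorticoid target differed. The receptor gene Nr3c1 was at 0.19 (adjusted p = 0.35), Tsc22d3 at -0.41 (adjusted p = 0.16), Per1 at 0.02 (adjusted p = 0.94) and Cebpd at -0.60 (adjusted p = 0.14), all named after their values were seen, as were the next pair. The metallothionein genes Mt1 and Mt2, whose products bind zinc, were at -0.26 (adjusted p = 0.16) and -0.37 (adjusted p = 0.13). The single member higher in the transgenic was Sdc4, a heparan sulfate proteoglycan, at 0.66 (adjusted p = 0.045) and at 0.54 without knock-out array 2 (adjusted p = 0.11), likewise named after its value was seen.

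Promoter sequence of the members was read because many of them were lower together. RefSeq windows from 250 bases before to 50 bases after the annotated start (GRCm38.p6) were found for 33 of the 41 members, as 45 windows. The 15-base palindrome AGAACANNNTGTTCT, the canonical binding palindrome of the glucocorticoid receptor, occurred in 3 of 32851 windows of all genes (0.00913%), and Sgk1 was the single member with it. The looser pattern GNACANNNTGTNC, which covers the inner part of the longer one, occurred in 156 windows (0.475%) and in 4 of the 45 member windows, those of Map3k6, Mt1, Sgk1 and Txnip. Both patterns read the same on either strand, so each match counts for both. The windows of the 3 of these genes that were lower in the transgenic are shown with the 13-base match in capitals. They lie at chr10:21993640-21993939 for Sgk1, chr4:133240568-133240867 for Map3k6 and chr3:96557707-96558006 for Txnip, all on the plus strand, and the matches begin 188, 181 and 172 bases before the start.
Sgk1: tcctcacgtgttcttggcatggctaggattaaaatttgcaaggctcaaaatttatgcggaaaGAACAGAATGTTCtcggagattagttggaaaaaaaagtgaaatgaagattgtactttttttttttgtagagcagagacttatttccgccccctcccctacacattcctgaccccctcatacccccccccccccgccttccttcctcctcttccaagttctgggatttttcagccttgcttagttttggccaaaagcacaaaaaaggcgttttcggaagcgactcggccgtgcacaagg
Map3k6: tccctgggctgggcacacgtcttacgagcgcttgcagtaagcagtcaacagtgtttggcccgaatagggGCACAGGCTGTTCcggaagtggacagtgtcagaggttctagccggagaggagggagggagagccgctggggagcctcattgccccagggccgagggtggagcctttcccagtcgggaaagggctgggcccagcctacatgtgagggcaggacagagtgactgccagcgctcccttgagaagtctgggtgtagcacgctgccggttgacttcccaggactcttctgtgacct
Txnip: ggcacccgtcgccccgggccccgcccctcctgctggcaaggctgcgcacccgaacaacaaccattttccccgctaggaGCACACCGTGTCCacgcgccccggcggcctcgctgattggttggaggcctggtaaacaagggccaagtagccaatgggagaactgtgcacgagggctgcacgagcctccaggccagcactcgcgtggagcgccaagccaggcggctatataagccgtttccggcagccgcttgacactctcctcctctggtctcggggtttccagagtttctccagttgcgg
The matches are a description of letters in these windows. The window of Lcn2, which differed more than any of them, held neither pattern, which says only that these letters are not in that window. Sgk1 has 6 annotated windows, of which 1 is shown.

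How far the transgenic and the knock-out followed the wild-type response was read from genes chosen on wild-type arrays alone. In wild-type mice paraquat raised 127 genes (1.53%) and lowered 39 (0.469%). The choice used neither the knock-out nor the transgenic arrays for the difference, although the estimate of the spread is shared. With knock-out array 2 left out of that estimate the wild-type calls rose to 353 (4.24%), 243 raised (2.92%) and 110 lowered (1.32%), which hold all 127 and all 39. On the knock-out paraquat arrays the 127 genes lay above the mean of their own saline arrays by 0.83, 0.53 and 0.66, and on the transgenic paraquat arrays by 0.35, 0.20 and -0.09. The 3 transgenic arrays lay below all 3 knock-out arrays. On the wild-type arrays, which chose the genes, the values were 0.87, 0.87 and 0.89. Counted by gene, 125, 105 and 125 of the 127 exceeded all 3 own saline arrays in the knock-out and 90, 63 and 12 in the transgenic. On transgenic arrays 1 and 2 those shares were 70.9% and 49.6%, beside 22.6% and 13.7% of all genes, and on array 3 the share was 9.45% beside 13.6% of all genes. On the knock-out arrays the shares were 98.4%, 82.7% and 98.4%, beside 37.3%, 15.2% and 37.4% of all genes. Over the 243 genes the values were 0.60, 0.27 and 0.47 in the knock-out and 0.22, 0.11 and -0.07 in the transgenic, in the same order.

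Compared directly, 60 of the 127 genes were lower in the transgenic than in the knock-out under paraquat and 0 were higher, with a median of -0.41. Without knock-out array 2 the count was 74 and 0 (median -0.49), without transgenic array 3 it was 45 lower and 1 higher (-0.29), and without both 64 and 0 (-0.38). Over all genes 5.83% were lower with all arrays, and 16.3%, 5.04% and 15.9% in these fits, in that order. Under saline 8 were lower and 7 higher, with a median of 0.06. The interaction with treatment was called for 2 of the 127 genes. Of the 127 genes, 31 are in the glucocorticoid list, so this count is not separate from the one above. The 39 genes lowered in wild-type mirrored this, with 22 higher in the transgenic and 0 lower (median 0.42), and 16, 14 and 15 higher without knock-out array 2, without transgenic array 3 and without both. The shares higher over all genes were 9.6%, 6.84%, 10.2% and 9.1% in these fits. Their distance from the own saline mean was -0.73, -0.86 and -0.49 in the knock-out and -0.25, -0.25 and -0.12 in the transgenic. On knock-out array 2 the -0.86 stood beside 76.8% of all genes below all 3 own saline arrays, where the other knock-out arrays had 34.8% and 27.6%. Of the 39 genes, 100%, 94.9% and 97.4% lay below all own saline arrays on the knock-out arrays, and 61.5%, 64.1% and 43.6% on the transgenic ones, the latter beside 22.1%, 20.3% and 32.2% of all genes. Over the wider sets, fitted without that array, 131 of the 243 genes were lower in the transgenic and 0 higher, and 40 of the 110 were higher and 1 lower. In that fit 16.3% of all genes were lower and 6.84% higher. Cxcl12, a chemokine of endothelium and meninges, was such a gene. It read 8.45, 8.32 and 8.78 in the transgenic and 7.82, 7.25 and 7.91 in the knock-out (0.86, SE 0.15, adjusted p = 0.0015), and -0.07 under saline, but its interaction missed the threshold (0.93, adjusted p = 0.15) and another probe set of the gene had the opposite sign. Within the transgenic no gene was called for paraquat against saline by limma, where 118 had an unadjusted p under 0.05, and without transgenic array 3 there were 6, all higher. The wild-type gave 166 calls (2%) and the knock-out 188 (2.26%), 66 higher (0.793%) and 122 lower (1.47%). Without knock-out array 2 the knock-out gave 151 (1.81%), 97 higher (1.17%) and 54 lower (0.649%), so that its balance turned. With a replicate block for the transgenic arrays alone the transgenic gave 1 call, higher, and 163 at an unadjusted p under 0.05.

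**Figure D2:**
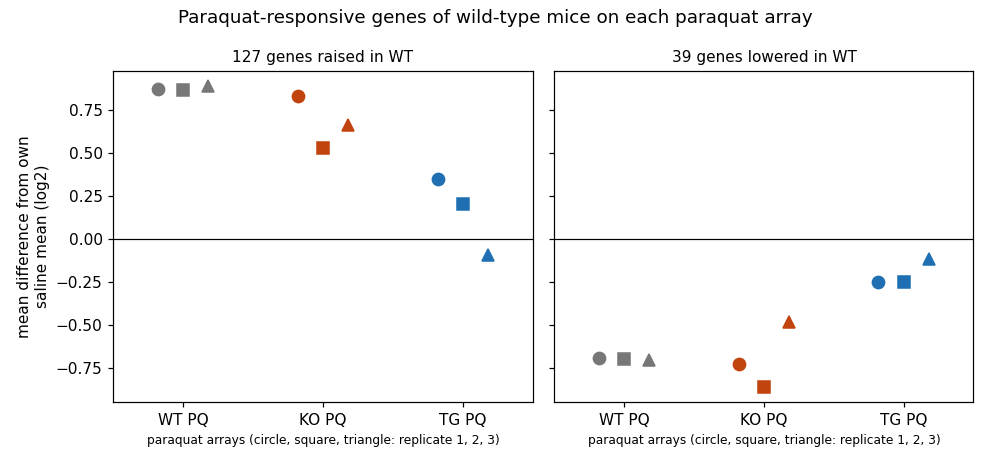
Mean difference from the own saline mean (y axis, log2) of the 127 genes raised (left) and the 39 genes lowered (right) by paraquat in wild-type mice, on each paraquat array (x axis; circle, square and triangle are replicates 1, 2 and 3). Wild-type points are shown as the arrays that chose the genes. For the raised genes the transgenic arrays lie at 0.35, 0.20 and -0.09, below the knock-out arrays at 0.83, 0.53 and 0.66.

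Fos, an immediate early gene induced by neuronal activity, ran the other way from Lcn2. It read 8.62, 8.95 and 8.95 on the transgenic paraquat arrays and 8.01, 7.33 and 8.72 on the knock-out paraquat arrays. The ranges overlapped, since knock-out array 3 lay above transgenic array 1. The difference of 0.82 (SE 0.26, adjusted p = 0.036) ended as a call without any 1 of the arrays except knock-out array 3, among them knock-out array 2 (0.48, adjusted p = 0.14) and transgenic array 3 (0.77, adjusted p = 0.079). Under saline Fos was lower in the transgenic, with arrays at 9.57, 8.52 and 8.98 against 10.32, 10.39 and 9.95 in the knock-out (-1.20, adjusted p = 0.0077). The interaction was 2.02 (SE 0.36, adjusted p = 0.041), and 8 of its 23 alternatives kept the call, with adjusted p up to 0.24. It was 1.67 without knock-out paraquat array 2 (adjusted p = 0.066) and 1.97 without transgenic paraquat array 3 (adjusted p = 0.075). The single-array omissions that also ended it were of knock-out saline arrays 1 and 2, transgenic saline arrays 2 and 3, knock-out paraquat array 1 and transgenic paraquat array 2.

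The orphan nuclear receptor gene Nr4a1 did not pass the test under paraquat. It read 8.16, 8.12 and 8.26 in the transgenic and 7.78, 7.86 and 8.21 in the knock-out under paraquat (0.23, adjusted p = 0.24), and was lower in the transgenic under saline (-0.76, adjusted p = 0.0026). Its interaction was 0.99 (adjusted p = 0.051). Of 23 immediate early genes 4 were higher and 1 was lower, with a median of 0.14, and without knock-out array 2 the count was 1 and 1. The shares over all genes were 9.6% higher and 5.83% lower, and 6.84% and 16.3% without that array. Jund, a subunit of the AP-1 factor, was higher in both of these fits (0.49, adjusted p = 0.022), and Gadd45b, a stress gene of the Gadd45 family, was lower (-0.41, adjusted p = 0.023). The call of Jund ended without transgenic array 1 (0.30, adjusted p = 0.12), and that of Gadd45b without knock-out array 1 (-0.30), knock-out array 3 (-0.37) or transgenic array 3 (-0.33, adjusted p = 0.075), and with the mean of its probe sets (-0.22, adjusted p = 0.061). Under saline 4 of the 23 genes were lower in the transgenic and 0 were higher, beside 6.54% and 2.79% of all genes. Apod, Fos, Lcn2 and Sgk3 were the 4 genes (0.0481%) called for the interaction, 1 higher (0.012%) and 3 lower (0.0361%), and 337 had an unadjusted p under 0.05. Without transgenic array 3 there were 6 calls (0.0721%), 5 of them lower (0.0601%). Without both doubted arrays there were also 6 (0.0721%), 2 higher (0.024%) and 4 lower (0.0481%). With a replicate block for the transgenic arrays alone, an alternative chosen after seeing the data, there were 19, 6 higher and 13 lower. In that fit Fos had an adjusted p of 0.016, Nr4a1 0.018, Fkbp5 0.0087 and Cdkn1a 0.00093, and with a block over all arrays Fos had 0.054.

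Other stress pathways were read in the same way, beside the all-gene shares of 9.6% higher and 5.83% lower, or 6.84% and 16.3% without knock-out array 2. Of 29 genes of the amino acid response, which ATF4 drives when amino acids are short, 7 were lower in the transgenic and 0 higher (median -0.26), and without knock-out array 2 the count was 12 and 0 (-0.32). Under saline 3 were lower, with a median of -0.11. Slc7a3, a transporter of cationic amino acids, read 6.79, 6.69 and 6.45 in the transgenic and 7.65, 7.33 and 7.82 in the knock-out (-0.96, SE 0.14, adjusted p = 0.00039). The groups were separate, and the saline difference had the same sign (-0.60, adjusted p = 0.012). Nupr1, a stress-induced chromatin protein, was at -0.76 (adjusted p = 0.0015) and -0.72 under saline. Chac1, which degrades glutathione, was at -0.66 (adjusted p = 0.0063) and -0.24 under saline (adjusted p = 0.31). Ddit4, an inhibitor of the mTOR kinase that also belongs to the glucocorticoid list, read 8.51, 8.24 and 9.43 against 10.32, 10.12 and 10.05 (-1.43, SE 0.33, adjusted p = 0.0082). Ddit4 also stood at -1.04 under saline (limma adjusted p = 0.0504), and its interaction of -0.39 was not called. Unlike most members, its transgenic array 3 lay closest to the knock-out.

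Of 20 p53 targets, 7 were lower and 1 was higher (median -0.13), beside 5.83% and 9.6% of all genes. Without knock-out array 2 there were 8 lower and 1 higher, beside 16.3% and 6.84%, and under saline 5 were lower. The lower ones included Cdkn1a and Ccng1, encoding cyclin G1, which read 8.88, 8.91 and 8.69 in the transgenic and 9.81, 9.39 and 9.77 in the knock-out (-0.83, SE 0.14, adjusted p = 0.0011). Of its 2 other probe sets 1 had the same sign. Zmat3, an RNA-binding p53 target, was the gene on the higher side (0.59, adjusted p = 0.011), and its call ended without transgenic array 1 (0.49, adjusted p = 0.060).

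Genes of antioxidant enzymes were called on both sides, but those of the superoxide dismutases were not called. Of 32 antioxidant enzyme genes 3 were higher and 2 lower, a share near the 15.4% of all genes, and 2 and 4 without knock-out array 2. The list median was 0.01, which turned to -0.05 when arrays were normalised by quantiles again or centred on their medians. Mt3, the brain metallothionein, was the largest of them, at 12.40, 11.82 and 11.89 in the transgenic and 11.13, 10.58 and 11.21 in the knock-out (1.06, SE 0.16, adjusted p = 0.00044). It differed equally under saline (1.01, adjusted p = 0.0011). Gpx8, a glutathione peroxidase of the endoplasmic reticulum, was lower (-0.59, adjusted p = 0.011, and -0.49 with 0.053 without transgenic array 2), and Sesn1, a stress-induced regulator of mTOR, likewise (-0.49, adjusted p = 0.0061). The superoxide dismutase genes Sod1, Sod2 and Sod3, named after their values were seen, were at -0.18, 0.15 and 0.13 with adjusted p of 0.36, 0.31 and 0.50.

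Of 22 NRF2 targets, which respond to electrophiles and oxidants, 3 were higher and 1 lower, with a median of 0.12, and 2 were higher and 2 lower without knock-out array 2. Srxn1, encoding sulfiredoxin, was higher under paraquat (0.41, adjusted p = 0.022) and under saline (0.58, adjusted p = 0.0046). The paraquat call of Srxn1 ended without knock-out array 1 (0.39) or without transgenic array 1 (0.39, adjusted p = 0.067) or 2 (0.38, adjusted p = 0.070). Of 17 genes of superoxide sources and paraquat handling 1 was higher and 3 were lower (median -0.14). These included Aox1, an aldehyde oxidase (-0.48, adjusted p = 0.013), and Dld, a subunit of mitochondrial dehydrogenase complexes (-0.62, adjusted p = 0.0049), both with saline values of the same sign and near size (-0.46 and -0.64).

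Among 14 genes of iron handling 3 were lower and 0 higher (median -0.12), which were Lcn2, the transferrin receptor gene Tfrc (-0.78, adjusted p = 0.0036) and the copper ferroxidase gene Cp (-0.36, adjusted p = 0.046). For Tfrc, 1 of 2 further probe sets had the opposite sign, and averaging ended the call (-0.26, adjusted p = 0.42). Cp had overlapping groups, and its call ended on leaving out any 1 array except knock-out array 2, at -0.28 to -0.39. Of 25 endoplasmic reticulum stress genes 5 were higher and 0 lower (median 0.10), but 3 were higher and 3 lower without knock-out array 2. Calr, the calcium-binding chaperone calreticulin, read 12.51, 12.30 and 12.03 against 11.51, 10.89 and 11.62 (0.94, SE 0.16, adjusted p = 0.0014). It stayed higher without that array (0.72, adjusted p = 0.0015). Of 27 cytosolic heat shock genes 4 were higher and 1 lower (median 0.02), against 1 and 2 without knock-out array 2, and the sign of the median turned under both rescalings (-0.02 and -0.04).

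Lipid handling split by gene. Of 30 lipocalins, apolipoproteins and lipid transport genes 5 were higher and 3 lower (median 0.07), a count that includes Apod. Over all genes 9.6% were higher and 5.83% lower, and 6.84% and 16.3% without knock-out array 2. Lcat, the enzyme that esterifies cholesterol on lipoproteins, was higher (0.64, SE 0.11, adjusted p = 0.0017), at 9.72, 9.34 and 9.34 against 8.82, 8.74 and 8.93. Abca1, which exports cholesterol to apolipoproteins, was lower (-0.78, SE 0.12, adjusted p = 0.00073), at 9.64, 9.52 and 9.19 against 10.32, 10.15 and 10.20. Both were separate between groups and had the same sign under saline (0.48 and -0.42). The mean of its probe sets, all of the same sign, put Abca1 at -0.34 (adjusted p = 0.11). Of 23 cholesterol synthesis genes 6 were higher and 1 lower with all arrays, but 2 and 2 without knock-out array 2. Srebf2, the transcription factor that drives the pathway, was higher in both fits (0.57, adjusted p = 0.011, and 0.41, adjusted p = 0.022), whereas the lanosterol synthase gene Lss was lower (-0.70, adjusted p = 0.012). The call of Lss ended without transgenic array 1 (-0.63, adjusted p = 0.054) and with the mean of its probe sets (-0.07, adjusted p = 0.65), since neither of its 2 other probe sets shared the sign.

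Many differences under paraquat were present under saline too. Under saline 776 genes (9.33%) differed between transgenic and knock-out, 232 higher (2.79%) and 544 lower (6.54%). Leaving out 1 array moved that saline count to 190 (without knock-out array 2), 220 (transgenic array 2), 272 and 286 (knock-out arrays 1 and 3) or 1387 (transgenic array 1). Under both treatments 425 genes were called in the same direction, 168 higher and 257 lower. Calls in both were 33.1% of the paraquat calls and 54.8% of the saline calls. These saline and paraquat comparisons use separate arrays, although same-numbered transgenic saline and paraquat arrays deviated from their group means together. Of the genes called under paraquat, 96.4% had the same sign under saline, beside 77.2% of all genes tested.

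The largest of these standing differences on the higher side was Rph3a, which encodes rabphilin, a synaptic vesicle protein. It read 10.09, 9.57 and 8.98 in the transgenic and 8.10, 7.81 and 7.97 in the knock-out under paraquat (1.59, SE 0.19, adjusted p = 0.00012), and differed by 1.34 under saline (adjusted p = 0.00062). Gfap, the intermediate filament of astrocytes, read 10.93, 10.49 and 10.76 against 9.79, 9.20 and 9.68 (1.17, SE 0.16, adjusted p = 0.00021), with 0.87 under saline. No transgenic value of either gene fell within the knock-out range, which the rule that named them required. Hoxb5, a homeobox gene of the hindbrain and spinal cord, read 8.60, 7.98 and 7.86 against 7.40, 6.21 and 6.97 (1.29, SE 0.24, adjusted p = 0.0028), with 0.95 under saline. Knock-out array 2 was the lowest value for Hoxb5, and without it the difference was 0.96 (adjusted p = 0.0058).

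On the lower side Ccn3, a secreted matricellular protein, read 6.23, 6.09 and 5.92 in the transgenic and 8.13, 7.48 and 7.61 in the knock-out (-1.66, SE 0.16, adjusted p = 5.7e-06), and -1.60 under saline (adjusted p = 2.1e-05). Amy1, encoding an amylase, read 6.15, 6.95 and 6.27 against 8.15, 7.73 and 8.33 (-1.61, SE 0.20, adjusted p = 0.00017), and -1.38 under saline. Both were separate between groups, which the naming rule required. The zinc finger gene Zfp932 (-1.21, adjusted p = 0.00022) and Ptpn22, a phosphatase known from lymphocytes (-1.13, adjusted p = 0.0010), were lower by similar amounts under saline (-1.45 and -1.39). Slc4a10, a neuronal bicarbonate transporter, was at -0.84 under paraquat and -0.91 under saline. None of these 5 interactions approached the threshold, with adjusted p of 1.0 for each after rounding.

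**Figure D3:**
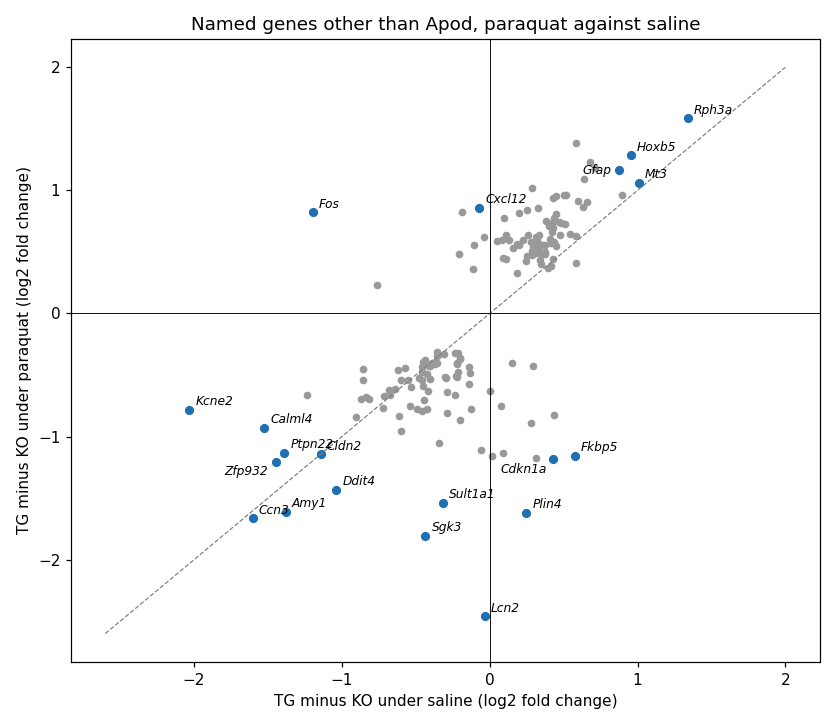
Transgenic minus knock-out under saline (x axis) and under paraquat (y axis), both as log2 fold change, for 171 named genes other than Apod. Each point is a gene, blue points carry names, and the dashed line marks equal differences. Ccn3, Amy1, Rph3a, Gfap and Mt3 lie near the line, while Lcn2 (-0.03 and -2.46), Plin4 (0.25 and -1.62) and Fos (-1.20 and 0.82) lie away from it. The interaction was called by limma for Lcn2 and Fos but not for Plin4 (adjusted p = 0.75). Most of the genes were named for their differences under paraquat.

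Synaptic vesicle and ion channel genes were examined next. Of 31 genes of the synaptic vesicle machinery 11 were higher and 2 lower (median 0.31), beside 9.6% higher over all genes, but without knock-out array 2 the count was 5 and 3 (0.16) and without both arrays 7 and 3 (0.10). The mean of the list was 10.19, 10.22 and 10.22 in the transgenic and 10.06, 9.83 and 10.13 in the knock-out. Knock-out array 2 was the lowest. Syp, the vesicle membrane protein synaptophysin, read 11.82, 11.96 and 11.72 against 11.25, 10.83 and 11.49 (0.65, SE 0.13, adjusted p = 0.0043), and Syn2, encoding synapsin 2, was at 0.87 (adjusted p = 0.0055). Both passed without that array and had same-signed saline differences (0.54 and 0.63). Pclo, a scaffold of the active zone, was lower (-0.54, adjusted p = 0.0061) and at -0.86 under saline (adjusted p = 0.00038). Its 1 other probe set had the opposite sign, and their mean ended the call (-0.04, adjusted p = 0.88).

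Of 25 potassium channel genes 8 were higher and 2 lower (median 0.18), beside 9.6% and 5.83% of all genes, and 6 and 3 without knock-out array 2 (0.23). Under saline 0 were higher and 2 lower, although the median was 0.15. Kcna6, a voltage-gated channel subunit, read 6.30, 6.52 and 6.90 in the transgenic and 5.67, 5.38 and 5.38 in the knock-out (1.09, SE 0.21, adjusted p = 0.0031). All 3 transgenic arrays lay above the knock-out, a separation that the naming rule required. Kcna2, another subunit of that family, was at 0.74 (adjusted p = 0.013), and at 0.47 without transgenic array 3 (adjusted p = 0.053). Kcnn2, a calcium-activated channel, was lower (-0.53, adjusted p = 0.0054). Of 23 calcium, sodium and HCN channel genes 6 were higher and 0 lower with all arrays, and 5 and 4 without knock-out array 2, where the median went from 0.12 to -0.02. Cacna2d2, an accessory calcium channel subunit expressed in Purkinje cells, read 9.91, 9.99 and 10.20 against 9.33, 9.07 and 9.36 (0.78, SE 0.14, adjusted p = 0.0019). Its saline difference was 0.10 (adjusted p = 0.70), and the interaction of 0.68 was not called (adjusted p = 0.52). Neither of its 2 other probe sets shared the sign, and the mean of probe sets ended the call (0.18, adjusted p = 0.25).

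Of 131 genes of splicing factors and nuclear RNA-binding proteins 22 were lower and 9 higher (median -0.09), beside 5.83% lower and a median of 0.04 over all genes. Without knock-out array 2 the count was 45 and 6 (-0.22), beside 16.3% lower and -0.04. Under saline 30 were lower and 1 was higher (-0.14), beside 6.54% lower over all genes. Srsf11, a serine and arginine rich splicing factor, read 9.81, 10.22 and 10.27 in the transgenic and 10.90, 10.57 and 10.92 in the knock-out (-0.70, SE 0.12, adjusted p = 0.0017). The groups were separate, and the saline value was -0.82. Tra2b, a splicing activator, was at -0.62 under paraquat and -0.68 under saline. Hnrnpab, on the higher side at 1.39 (adjusted p = 0.0032), had 6 other probe sets of which 3 shared its sign, and averaging them gave 0.25 (adjusted p = 0.076). The oxidative phosphorylation (79 genes, 1 higher, 3 lower), mitochondrial ribosome (74 genes, 1 and 6) and proteasome (43 genes, 4 and 2) lists had medians of 0.01 each, all of which turned negative under both rescalings. With that array left out their counts were 0 and 6, 0 and 11, and 3 and 9, beside 16.3% of all genes lower in that fit.

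The remaining pathway lists split in both directions or depended on the arrays. Of 148 solute carrier genes 18 were higher and 9 lower, against 7 and 22 without knock-out array 2. Of 119 zinc finger genes 7 were higher and 5 lower, against 6 and 24 without that array, and of 43 lysosomal genes 5 and 3, against 0 and 7. In each of these lists the majority lay on the lower side once that array was left out. Of 26 SGK and FoxO genes 3 were higher and 7 lower, against 1 and 8, and of 21 lipid droplet and fatty acid oxidation genes 0 and 4, against 0 and 8. Of 38 glycolysis and TCA cycle genes 3 were higher and 3 lower, against 2 and 7 without that array. Of 42 cytosolic ribosomal protein genes 2 were higher and 0 lower, against 1 and 3. Of 35 matrix genes the counts were 4 and 1, against 3 and 2, and of 23 neurodegeneration genes 2 and 2, against 2 and 5. Of 18 transmitter receptor genes 1 was higher and 1 lower, against 3 and 2, of 16 MAPK feedback genes 1 and 2, against 1 and 3, and of 15 clock genes 1 and 1, against 1 and 3. Of 17 genes of arachidonic acid and endocannabinoids 1 was higher and 0 lower, against 1 and 1, and of 17 interferon and MHC genes 2 and 0, against 1 and 1. Of 11 inflammation genes 2 were higher and 2 lower, the latter being Lcn2 and Lrg1, against 1 and 2. All of these stand beside 9.6% higher and 5.83% lower over all genes, and 6.84% and 16.3% without that array.

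**Figure D4:**
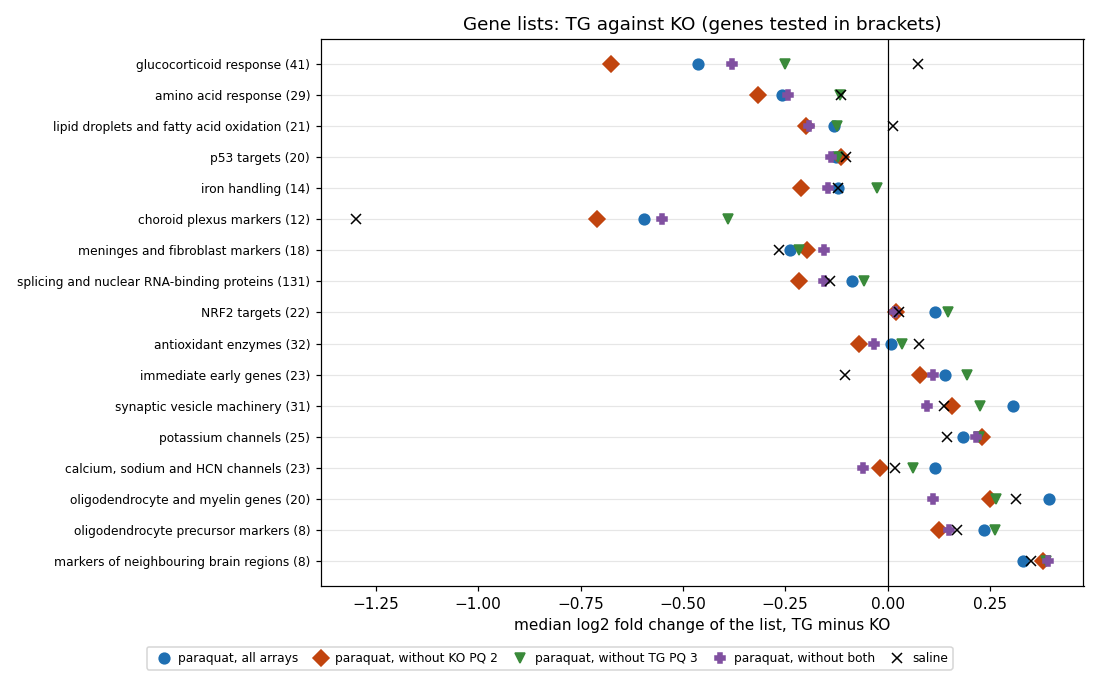
Median log2 fold change, transgenic minus knock-out (x axis), of 17 gene lists (y axis, genes tested in brackets). Filled symbols are the paraquat comparison with all arrays, without knock-out array 2, without transgenic array 3 and without both, and crosses are the saline comparison. The glucocorticoid list lies at -0.46 under paraquat and 0.08 under saline, and choroid plexus markers lie at -0.60 and -1.30.

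Markers of cell types at the edge of the dissected tissue differed between the genotypes. All 12 choroid plexus markers tested were below 0, and 5 were lower by the test, with a median of -0.60 (-0.71 without knock-out array 2, -0.39 without transgenic array 3). Under saline 11 of 12 were lower, with a median of -1.30. Over all genes 5.83% were lower under paraquat and 6.54% under saline. The mean of the markers was 7.43, 7.12 and 6.57 in the transgenic and 7.81, 7.44 and 7.77 in the knock-out under paraquat, and 6.59, 6.90 and 6.11 against 7.79, 7.92 and 7.78 under saline. The paraquat groups nearly touched, at transgenic array 1 and knock-out array 2, while the saline groups lay far apart. Cldn2, a tight junction protein of that epithelium, read 6.61, 5.84 and 5.58 against 7.23, 7.14 and 7.09 (-1.14, SE 0.19, adjusted p = 0.0014), and -1.14 under saline. Its 1 other probe set had the opposite sign, and their mean was -0.57 (adjusted p = 0.0046). Kcne2, a potassium channel subunit that the same epithelium expresses, was at -0.78 (adjusted p = 0.033) and -2.03 under saline. Its paraquat call ended without knock-out array 1 (-0.79) or 3 (-0.59) and without transgenic array 1 (-0.85) or 3 (-0.57). Ttr, the transthyretin gene and its most abundant transcript, missed the test under paraquat (-0.53, adjusted p = 0.21) and was lower under saline (-1.36, adjusted p = 0.0072), named after its values were seen. Of 18 meninges and fibroblast markers 5 were lower and 0 higher (median -0.24), among them the proteoglycan gene Lum (-0.70, adjusted p = 0.0035) and the matrix protein gene Mgp (-0.64, adjusted p = 0.0035). Their part in the differences of other genes was not tested.

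Oligodendrocyte genes ran the other way. Of 20 myelin and oligodendrocyte genes 8 were higher and 0 lower (median 0.39), and 5 and 0 without knock-out array 2 (0.25), without both arrays 5 and 0 (0.11). The shares higher over all genes were 9.6%, 6.84% and 9.1% in these fits. Under saline 2 were higher and 0 lower (0.31), and 0 were called for the interaction. The list median under paraquat ran from 0.04 to 0.49 over 17 alternatives. Their mean was 10.71, 10.55 and 10.98 in the transgenic and 10.54, 10.13 and 10.46 in the knock-out, so that transgenic array 3 was the highest and knock-out array 2 the lowest of the 6. Gjb1, the gap junction protein connexin 32, read 8.85, 8.80 and 9.22 against 8.29, 8.01 and 8.34 (0.74, SE 0.12, adjusted p = 0.0010). Sox10, the transcription factor of the lineage, read 9.61, 9.18 and 9.50 against 8.68, 9.12 and 8.80 (0.56, SE 0.12, adjusted p = 0.0059). Both were separate, with a gap of under 0.1 for Sox10. The main myelin protein gene Mbp did not pass (0.09), named after its value was seen. Of 8 markers of oligodendrocyte precursors 3 were higher and 0 lower, but 3 and 2 without knock-out array 2. The higher ones included C1ql1, a secreted synaptic organiser (0.91, SE 0.13, adjusted p = 0.00039).

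Of 8 markers of neighbouring brain regions 4 were higher and 0 lower (median 0.33), and under saline 1 was higher (0.35). Over all genes 9.6% were higher under paraquat and 2.79% under saline. Under paraquat 3 of the 8 markers lay below 0, and the list median ran from -0.02 to 0.69 over 17 alternatives. Their mean was 7.04, 7.10 and 7.11 in the transgenic and 6.84, 6.69 and 6.73 in the knock-out. The homeobox genes Hoxa5, Hoxb2 and Hoxb3, which mark hindbrain behind the cerebellum, were at 0.69 (adjusted p = 0.013), 0.64 (adjusted p = 0.011) and 0.40 (adjusted p = 0.031). Hoxb5, above, and Hoxb6 (1.23, adjusted p = 0.0017) are not on this list. Both were named for a large difference on the higher side, so their sign was set by that choice. Hoxb6 had low signal, at 6.37, 6.43 and 6.36 in the transgenic and 5.68, 4.57 and 5.22 in the knock-out. Every array median was 6.98 or above. The call of Hoxb3 ended without knock-out array 1 (0.35) and without transgenic array 1 (0.39) or 2 (0.32, adjusted p = 0.13), and that of Hoxa5 without both doubted arrays (0.52, adjusted p = 0.052). Whether the dissections differed was not recorded in the labels, and its part in the other differences was not tested.

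Markers of the main cerebellar neurons and of other cells had calls on both sides. Of 15 granule neuron markers 1 was higher and 1 lower, but 1 and 5 without knock-out array 2, where 16.3% of all genes were lower. Of 12 Purkinje neuron markers 2 were higher and 2 lower in both fits, among them Calb1, a calcium buffer (-0.31, adjusted p = 0.048), and Slc1a6, a glutamate transporter (0.56, adjusted p = 0.011). The call of Calb1 ended on leaving out any 1 array except knock-out array 2 (-0.24 to -0.35), and that of Slc1a6 without transgenic array 1 (0.50). Of 24 astrocyte and Bergmann glia markers 3 were higher and 0 lower, and the list median of 0.12 turned to -0.04 without knock-out array 2. Of 19 microglia markers 2 were higher and 3 lower, with Fcgr3, an immunoglobulin receptor, at -0.58 (adjusted p = 0.0023). Of 19 endothelial markers 3 were higher and 5 lower, beside 9.6% and 5.83% of all genes, and 4 and 6 without knock-out array 2. The sign of their median, 0.06, turned to -0.07 without that array and to -0.01 under both rescalings. Of 5 leukocyte markers 1 was higher and 1 lower, and of 3 erythrocyte genes 0 passed. Of 11 interneuron and Golgi cell markers 1 was higher, and of 10 pericyte and smooth muscle markers 1 was lower.

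**Figure D5:**
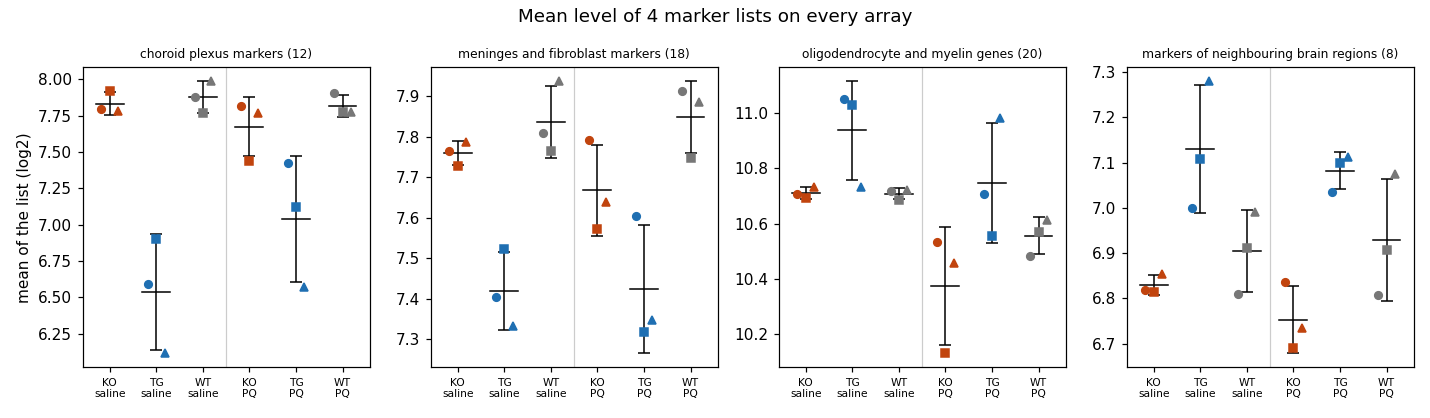
Mean log2 level (y axis) of choroid plexus, meninges, oligodendrocyte and neighbouring region markers on all 18 arrays, by genotype and treatment (x axis). Circles, squares and triangles are replicates 1, 2 and 3, the line is the mean and the bar the SD of 3 arrays. Choroid plexus markers in the transgenic lie at 6.57 to 7.43 under paraquat and 6.11 to 6.90 under saline, below every knock-out array, and oligodendrocyte genes are lowest on knock-out paraquat array 2 at 10.13.

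Wild-type values place the groups, although these comparisons share arrays with the one above and so are set side by side. Against wild-type under paraquat the knock-out had 1 gene called (0.012%), Apod at -3.12, and 1097 with an unadjusted p under 0.05, while the transgenic had 1578 (19%), 386 higher (4.64%) and 1192 lower (14.3%). Leaving out knock-out array 2, which enters through the shared spread, gave the transgenic 2823 (33.9%), 879 higher (10.6%) and 1944 lower (23.4%), and the knock-out 2, both lower. Lcn2 was at 0.31 in the knock-out and -2.15 in the transgenic, Sgk3 at -0.23 and -2.04, and Sult1a1 at 0.04 and -1.50. None of these 3 was called in the knock-out, and all 3 transgenic values were lower by the test. Gfap was at -0.55 in the knock-out, which was not called (limma adjusted p = 0.29), and at 0.62 in the transgenic (adjusted p = 0.0095). Its wild-type arrays, at 9.93, 9.96 and 10.42, lay between the 2 groups. Knock-out array 2 was the lowest, at 9.20 beside 9.79 and 9.68.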

How the data were processed

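The authors deposited log2 expression values for 18 Affymetrix arrays, made by RMA per the submitters' processing notes, and the log2 scale was taken from the values themselves, which ran from 3.13 to 14.9. The chip file versions are not given in the sources used here. Of 22690 probe sets, 64 controls were left out, 20380 carried 1 symbol, 691 several and 1555 none. For each of 12393 genes the probe set with the highest mean was kept, and 8320 genes above the 40th percentile on at least 3 arrays were tested. One limma model (limma 3.58.1, R 4.3.3) with 6 group means was fitted over all arrays, with Benjamini-Hochberg adjustment over all genes tested. The fit was tested on simulated data. The simulated arrays were independent, with the same SD of a gene on each, so the test did not cover an outlying array. Arrays carry no counts, so their number limits the precision. No label says more than the pooling of 3 mice about what separates replicates.

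Genes were named by a rule: the 15 largest calls each way that held with and without knock-out paraquat array 2 and had no overlap, up to 4 each way per list, Apod, fixed glucocorticoid and activity genes, and up to 5 interaction genes. The 48 gene lists (34 of pathways, 14 of cell types) hold 994 symbols, 842 of them on the array. Members and lists were chosen with earlier results of these data known. Promoter windows came from RefSeq (GRCm38.p6). Same-numbered transgenic saline and paraquat arrays deviated from their group means together (correlations of 0.16, 0.13 and 0.42) and knock-out ones did not (-0.09, -0.28 and -0.12). This pairing comes from the data, as no label states it. The alternatives were other normalisations, filters, probe set rules, array weights, a replicate block and the omission of single arrays.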

Additional observations from a re-analysis of the deposited data

Results flagged for a closer look

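A difference between transgenic and knock-out that changed with treatment, by a test of the interaction in limma, was found for 4 genes. The change was -1.21 for Apod, 2.02 for Fos, -2.43 for Lcn2 and -1.37 for Sgk3 on the log2 scale. Apod and Lcn2 kept the call in 17 of 23 and in 22 of 22 alternatives. Sgk3 kept it in 13 of 23 and Fos in 8 of 23.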

How the results depend on the processing

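Precision was limited by 3 pools a group and by signal close to background for the lowest genes. The 1284 calls under paraquat became 52 with only the 6 arrays compared (1366 at an unadjusted p under 0.05), 2046 after quantile normalisation (47.8% higher against 62.2%), 1699 with arrays centred on their medians (43.6% higher), 4612 with array weights (41% higher), and 611 to 2076 on leaving out arrays. Without knock-out paraquat array 2 the 1925 calls (29.6% higher) became 731 with only those arrays, 3940 with array weights, 1862 after quantile normalisation (41.2% higher) and 608 or 785 without knock-out array 1 or 3 as well. The 776 saline calls (29.9% higher) became 1474 after quantile normalisation (41.1% higher), 1179 with centring, 4155 with array weights (46.8% higher) and 190 to 1387 on leaving out arrays. The 4 interaction calls became 1 with only the arrays compared and after quantile normalisation, 10 with centring, 839 with array weights, 2 without the filter, 7 with a 60th percentile filter, 8 with the mean of probe sets and 1 to 12 on leaving out arrays. Apart from the smaller sets of arrays and genes, the cause was not tested. Same-numbered knock-out and transgenic paraquat arrays deviated from their group means with correlations of 0.08, -0.20 and -0.20, so the numbers do not pair them. A replicate block for the transgenic arrays alone, chosen after seeing the data, gave 1561 calls under paraquat, 1012 under saline and 19 for the interaction. A replicate block over all arrays gave 1318 calls under paraquat, 769 under saline and 3 for the interaction, and without knock-out paraquat array 2 it gave 2023 under paraquat and 1987 under saline. Over 172 named genes, 2500 of 2876 alternative values kept the call, 375 lost it, 1 gained it and 0 reversed. Most of these genes were named because they were called with and without knock-out array 2. Kept calls and signs thus follow in part from the naming. With only the 6 arrays 140 named genes lost the call. Of 816 list medians 65 moved.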

Other observations

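Genes on the X chromosome, a set chosen after its values were seen, leaned lower in the transgenic. Of 242 tested X-linked genes, 5 were called higher and 26 lower in the same direction under both treatments, together 12.8%, where the 19 autosomes ranged from 3.63% to 7.69%. Under saline 6 were higher and 42 lower (19.8%, against 6.8% to 15% on the autosomes). Under paraquat 14 were higher and 31 lower (18.6%, against 13.7% to 16.7%), and 11 higher and 79 lower without knock-out array 2. The median difference of X-linked genes was -0.07 under paraquat, -0.19 without knock-out array 2 and -0.16 under saline. A chromosome was found for 8310 of the genes tested, and genes on a chromosome are not independent replicates.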
